A study of Gossypium hirsutum with 12 samples.

Results

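The 200 brightest probe sets of cotton leaf arrays are described here, with Rubisco activase (RCA1) among them. They were chosen by their mean linear signal over all 12 arrays, as the 200 highest of 24029 probe sets that were not array controls, and 1 probe set was left out before the ranking. A probe set is the group of short probes that measures a transcript. Members without a gene are called here by their rank in mean signal, in which rank 1 is the brightest. All 200, called the members below, passed the filter on dim probe sets and were tested among 16820. The choice rests on signal level alone, so the levels that follow are a description. Since a few samples with high values can lift a mean, a member that entered through 1 condition had to differ in that condition.

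The leaves were from upland cotton (Gossypium hirsutum) of 2 cultivars, and the series, by its title, is about how cultivars differ in heat tolerance and physiological performance. The 4 groups of 3 arrays each were Sicala 45 at 42 °C, Sicala 45 at 32 °C, Sicot 53 at 42 °C and Sicot 53 at 32 °C. These are daytime air temperatures in a growth cabinet, with nights of 25 °C. All plants grew in field soil and first spent 4 d in the cabinet at the lower setting. The sources used here do not give the length of the treatment. RNA came from whole leaves, the third youngest fully expanded leaf of vegetative plants at the stage of the first flower bud (square), so fewer cells of a type and less RNA per cell cannot be told apart. One cabinet served both temperatures in turn, 32 °C first, so cabinet run and temperature cannot be told apart. The labels do not say whether the 3 samples of a group came from separate plants, and p-values measure only the spread between these samples.

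In a green leaf the most abundant transcripts mostly serve photosynthesis. Rubisco fixes carbon dioxide in the chloroplast, and it is kept working by Rubisco activase, an ATP-driven chaperone that frees its active sites of bound sugar phosphates. Activase is known as a heat-sensitive protein, and in many plants warm leaves lose activase activity before Rubisco itself is harmed. Fixing oxygen in place of carbon dioxide leads to photorespiration, which releases hydrogen peroxide in peroxisomes, where catalase breaks it down. Superoxide dismutase removes superoxide, another by-product of photosynthetic electron transport.

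Few members can be named. The array annotation pairs 22 of the 200 with exactly 1 gene (21 genes, since LOC107887176 has 2 members), 3 with several genes, and lists none for 175. A gene name was held for 7. They are RCA1 (LOC107942112), the catalase CAT2 (LOC107943729), the copper/zinc superoxide dismutase CSD2a (LOC107889076), the lipid transfer protein LTP3 (LOC107896815), the 1-aminocyclopropane-1-carboxylate (ACC) oxidase ACO3 (LOC107915412), which makes ethylene in the last step of its synthesis, and CBP3 (LOC107958067) and CBP2 (LOC107913771). Of the leaf mesophyll markers (Rubisco, its activase, light-harvesting and photosystem genes) only RCA1 could be found by name. LTP3, a fixed marker of cotton fibre cells, was also a member. The other fibre markers with values here, E6, Fb2, FLA7 and EXP1, were far from the members' level. Also on the fixed list of fibre markers were SuSy, FbL2A, GhMYB25 and RDL1, for which no values are given here. Averaged over all arrays, E6 had 834, Fb2 542 and FLA7 332 units of signal, and the expansin EXP1, at 22.2, was among the dim probe sets left out. The part of fibre or hair cells in these results was not tested.

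One member is no leaf transcript. By its ID, the member of rank 54 is a reporter probe set, and it gave 0.894 to 1.09 times the signal of an array control for cre, a phage P1 transcript added at hybridization, on every array. The cre control itself ranged from 11329 to 36877 over the arrays, a 3.26-fold range, against 2.19-fold for the highest signal of each array. Among the members 56.5% had IDs ending in _s_at, which marks probes shared by several related transcripts, against 38.7% of all 24029. Cotton is tetraploid, so signals of gene copies may be pooled in such probe sets. Probe sets designed from Gossypium hirsutum (prefix Ghi) made up 83.5% of the members and 69.9% of all, and those from Gossypium raimondii (prefix Gra) 15.5% and 29.4%. The members' IDs belong to 191 sequence clusters, 7 of which hold 15 members between them, so the members are not 200 independent transcripts. Signals of different probe sets depend on their probes as well as on the transcript, and the ranks below are ranks of signal, not of transcript amount.

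The brightest probe set, of rank 1, had a mean of 41667. It was the highest on 10 arrays, and that of rank 2, with a mean of 41219, was the highest on the other 2 (replicates 1 and 2 of Sicala 45 at 42 °C). The next 8 had means of 38685 to 36233. Among them CBP3 stood at rank 5, LOC107900463 at rank 6 and RCA1 at rank 10, and the other 5 have no gene listed. At the other end, the last 2 probe sets to enter had means of 14795 and 14783, and the first 2 outside had 14760 and 14756. On any 1 array, the highest signal was 2.07 to 3.07 times the 200th highest, so the 200 highest signals of an array shared a narrow band. The members did not all stay in it, since the lowest member signal of an array ranged from 1965 to 12387. In all, 193 members were at 10% or more of the highest signal on every array. The members held 18.0% to 26.7% of the summed signal of an array.

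Since the same 12 arrays chose the members, the overlap of single arrays and groups with the list is a description. Of the 200 members, 110 were among the 200 brightest on every array and 178 among the 400 brightest on every array. Ranked by group means, 182 of the members were among the 200 brightest of Sicala 45 at 42 °C, 182 at 32 °C, 183 of Sicot 53 at 42 °C and 180 at 32 °C. In all 4 of these lists stood 156 members, and 44 were missing from at least 1.

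Bright signals moved up and down together from array to array. The highest signal was 53575, 38904 and 38566 on the arrays of Sicala 45 at 42 °C, against 24448, 48204 and 35711 at 32 °C. It was 37642, 45017 and 46480 in Sicot 53 at 42 °C, against 52186, 51114 and 33458 at 32 °C. The temperatures overlapped in both cultivars, and the largest gap within a group lay between replicates 1 and 2 of Sicala 45 at 32 °C. Averaged over cultivars, the highest signal had a log2 change of +0.13 with heat (6 arrays at each temperature, two-sided exact permutation within cultivars, 400 arrangements, p = 0.555), with +0.31 in Sicala 45 and -0.06 in Sicot 53.

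RCA1 kept a near-constant place below that top. Its signal was 44130, 33077 and 33491 in Sicala 45 at 42 °C, against 20925, 40740 and 29430 at 32 °C. In Sicot 53 it was 33455, 37803 and 40694 at 42 °C, against 45772, 45752 and 29529 at 32 °C. The temperatures overlapped in both cultivars, and on each array RCA1 stood between 4th and 14th in rank. Relative to the highest signal, RCA1 averaged 84.7% ± 2.25 in Sicala 45 at 42 °C and 84.2% ± 1.62 at 32 °C, and 86.8% ± 2.54 in Sicot 53 at 42 °C and 88.5% ± 0.923 at 32 °C (SD, n = 3 each). Whether RCA1 and the probe sets around it were saturated was not tested. The table has no probe-level data, and a shared upper limit and a shared level of transcript cannot be told apart in it.

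**Figure D1:**
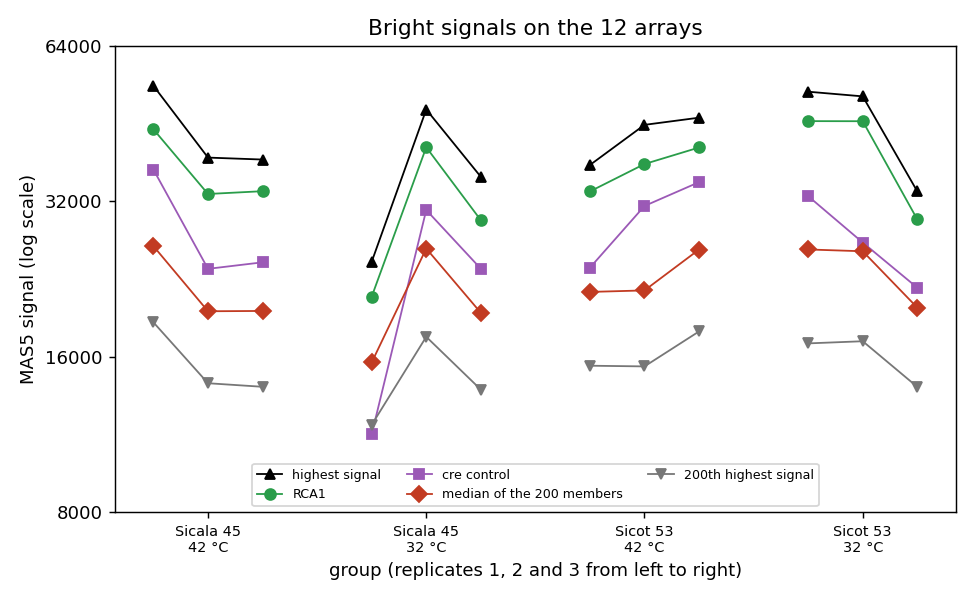
MAS5 signal (log axis) of 5 measures on each of the 12 arrays, with the arrays of a group side by side and lines joining the arrays of 1 group. RCA1 lies just below the highest signal on every array, and the cre control, the median of the 200 members and the 200th highest signal mostly rise and fall with it.

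The spread between replicate arrays was then taken with and without this shared movement. As deposited, the SD between the 3 arrays of a group, on the log2 scale, had a median over probe sets of 0.33 for ranks 1 to 10 and 0.32 for ranks 101 to 200. Relative to the cre control, which is no member, the same medians were 0.19 and 0.36. Relative to the median of all members, they were 0.11 and 0.22, with 0.11 also for ranks 11 to 50, and 178 of the 200 members had a smaller SD this way than as deposited. Of the next 400 probe sets in rank 55% did, and of those ranked 2001 to 6000, 18.2%. That median is taken from the members themselves, so a smaller SD in members than in other probe sets is partly built in. Relative to the array's highest signal, the medians were 0.05 and 0.28, of which the first is small by construction, since that signal is always the member of rank 1 or 2.

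**Figure D2:**
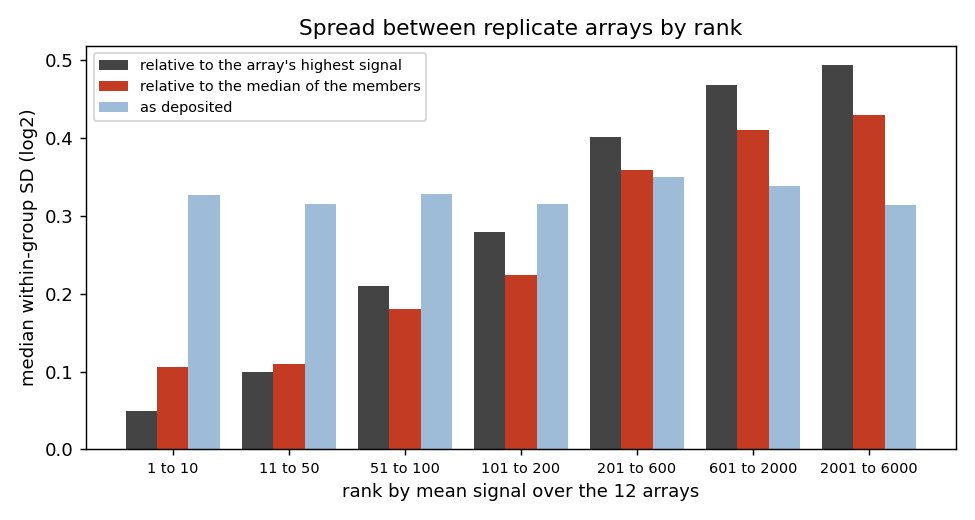
Median SD between replicate arrays (log2 units, averaged over the 4 groups) by rank of mean signal, taken relative to each array's highest signal, relative to the median of the members, and as deposited. For ranks 1 to 10 the bars are 0.05, 0.11 and 0.33, and beyond the members no relative median is below the deposited one.

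Few of the members passed for heat on the signals as deposited. Averaged over both cultivars, 4 of 200 passed the threshold (limma, Benjamini-Hochberg adjusted p under 0.05 over all 16820 probe sets), which is 2%, against 8.8% of all probe sets tested. All 4 were higher at 42 °C, against 4.22% of all, and 0 were lower, against 4.59% of all. At an unadjusted p under 0.05, 19 of the 200 were counted, which is 9.5%, against 25.2% of all. Among the next 200 probe sets in rank, 21 passed, or 10.5%, with 18 higher and 3 lower. The median change was +0.08 over the members, where 135 lay above 0, and -0.05 over all probe sets tested. The 95% interval of a member's change, not adjusted for the number of tests, reached a median of 0.42 log2 units to either side. Smaller changes were mostly not detectable with 3 arrays per group. Some larger ones did not pass either, such as ACO3 at +0.60 (limma adjusted p = 0.0871).

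**Figure D3:**
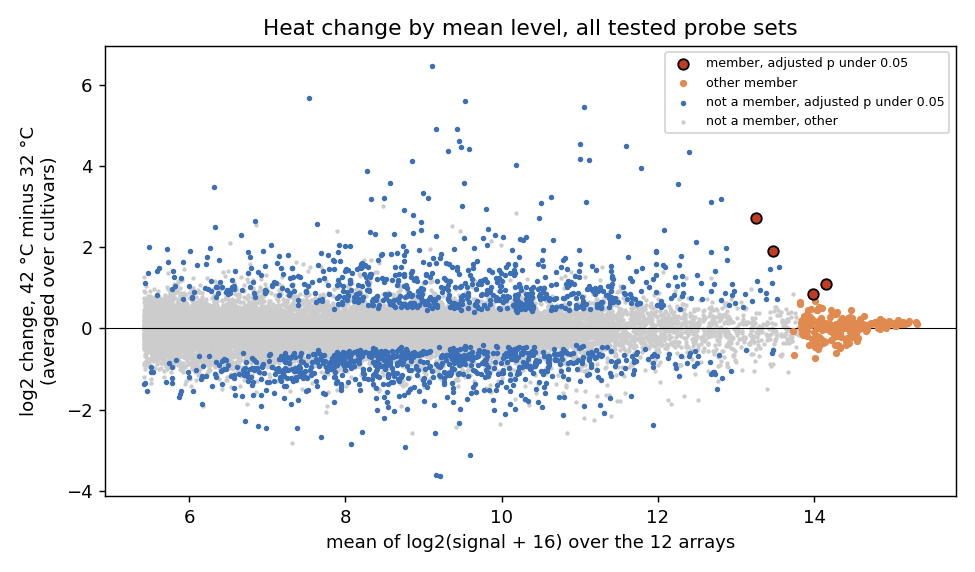
Log2 change with heat (42 °C minus 32 °C, averaged over cultivars) against the mean of log2(signal + 16) for all 16820 tested probe sets, with the 200 members, the members that passed and other probe sets that passed marked. The members' changes draw together towards the right end, where ranks 1 to 10 lie between +0.10 and +0.18, and the 4 that passed lie to the left among the members.

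The range of the changes was narrower at brighter ranks. The ranges below cover 10, 40, 50 and 100 members in turn, and a range can widen with the number of members alone. For ranks 1 to 10 they lay between +0.10 and +0.18, beside +0.13 for the highest signal itself. For ranks 11 to 50 they lay between -0.06 and +0.31, for ranks 51 to 100 between -0.60 and +0.45, and for ranks 101 to 200 between -0.72 and +2.72. The 4 members that passed all ranked from 125 to 193. Each of them was among the 200 brightest by group mean in both 42 °C groups and in neither 32 °C group, so their heat signal is part of what made them members. Of the 156 members in the lists of all 4 groups, 0 passed, against 8.8% of all probe sets tested. Those lists by construction leave out probe sets low in any group.

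None of the 4 has a gene listed in the annotation, so their functions are not given here. The member of rank 186 had signals of 50781, 18658 and 15131 in Sicala 45 at 42 °C, against 3297, 3945 and 3078 at 32 °C. In Sicot 53 it had 23342, 23455 and 31702 at 42 °C, against 3408, 10854 and 1965 at 32 °C. Every 42 °C array lay above every 32 °C array, though the 42 °C arrays of Sicala 45 were far apart. Its log2 change was +2.72 ± 0.39 SE (6.61-fold, limma adjusted p = 0.00151). On replicate 1 of Sicala 45 at 42 °C it was at 94.8% of the highest signal.

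The member of rank 193 had a like order of arrays. Its signals were 35208, 16556 and 12171 in Sicala 45 at 42 °C, against 5148, 8011 and 4905 at 32 °C. In Sicot 53 they were 22945, 26757 and 26220 at 42 °C, against 3949, 16184 and 3163 at 32 °C. The temperatures did not overlap within either cultivar, and replicate 2 of Sicot 53 at 32 °C stood well above the other replicates of its group for both this member and that of rank 186. The log2 change was +1.90 ± 0.38 SE (3.74-fold, limma adjusted p = 0.0101).

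Smaller and more even differences were seen at rank 125. It had 30310, 24349 and 23444 in Sicala 45 at 42 °C, against 11862, 10595 and 10117 at 32 °C. In Sicot 53 it had 23081, 29759 and 30134 at 42 °C, against 13407, 17120 and 12516 at 32 °C. The temperatures lay apart in both cultivars, and the log2 change was +1.10 ± 0.15 SE (2.15-fold, limma adjusted p = 0.00109), the lowest adjusted p among the members.

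Rank 167 had the smallest change of the 4. It had 23034, 21015 and 26590 in Sicala 45 at 42 °C, against 9037, 14990 and 14090 at 32 °C. In Sicot 53 it had 16948, 23506 and 20779 at 42 °C, against 12756, 12429 and 9902 at 32 °C. The temperatures lay apart in both cultivars here too, and the log2 change was +0.86 ± 0.17 SE (1.81-fold, limma adjusted p = 0.00959). The rule for naming allows at most 2 unnamed probe sets in a direction, and the third and the fourth were added after their values were seen. Only these 4 members lay apart upward in both cultivars (2%, against 4.11% of all probe sets tested), and 0 lay apart downward (against 4.26% of all). With the list of members kept as chosen on all 12 arrays, the calls of all 4 held when any 1 array was left out. Since their heat signal helped to make them members, this is no separate support for the count of 4.

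**Figure D4:**
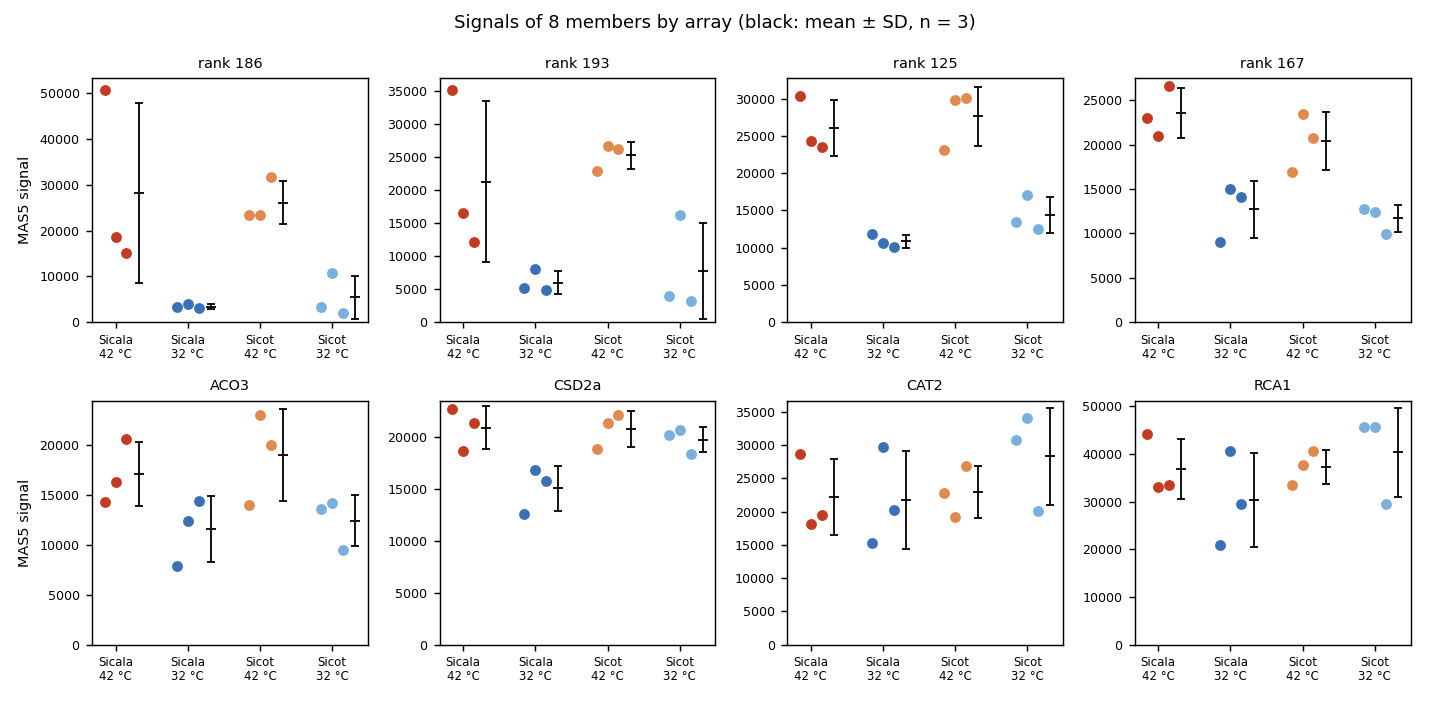
MAS5 signal on each array (points, linear axis from 0) with the mean and SD of each group of 3 (black) for the 4 members that passed (top, named by rank) and for ACO3, CSD2a, CAT2 and RCA1 (bottom). In the top panels every 42 °C point lies above the 32 °C points of the same cultivar, and in the CAT2 and RCA1 panels the temperatures overlap in both cultivars.

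The counts depended on what the arrays were scaled to, for the members and for all probe sets alike. Control transcripts added to the samples before labelling (poly-A spikes) had a geometric mean of 726 to 1130 at 42 °C and 452 to 807 at 32 °C (log2 change +0.53, exact permutation p = 0.01). Scaled to them, 77 members passed, or 38.5%, against 34.7% of all probe sets tested, with 3 higher and 74 lower. The median was -0.45 over the members and -0.52 over all. Scaled to the hybridization controls, a choice made after the data were seen, 3 passed (1.5%, against 3.88% of all), 2 higher and 1 lower, with a median of -0.19 over the members and -0.30 over all. Scaled to each array's highest signal, 4 passed (2%, against 2.88% of all). The members of ranks 186 and 193 passed upward when scaled to the spikes and when scaled to the hybridization controls. That of rank 125 passed with the spikes but not with the hybridization controls, and that of rank 167 with neither of them. All 4 kept their direction.

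RCA1 did not pass for heat. Its log2 change was +0.12 averaged over cultivars, with a 95% interval of -0.32 to +0.55 (limma adjusted p = 0.767). The change was +0.32 ± 0.28 SE in Sicala 45 (limma adjusted p = 0.642) and -0.09 ± 0.28 SE in Sicot 53 (0.914). Beside it, the array's highest signal had +0.13, +0.31 and -0.06 in the same order. Scaled to the highest signal, the averaged value of RCA1 was -0.0093, and quantile normalization (-0.036), the hybridization controls (-0.15) and the spikes (-0.41) also turned its sign. CBP3, of rank 5 (+0.10 averaged over cultivars, limma adjusted p = 0.801), and CBP2, of rank 38 (+0.14, adjusted p = 0.718), did not pass either.

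The antioxidant enzymes among the members, CAT2 and CSD2a, did not pass. CAT2 had 28698, 18182 and 19548 in Sicala 45 at 42 °C, against 15198, 29717 and 20245 at 32 °C. In Sicot 53 it had 22742, 19132 and 26859 at 42 °C, against 30688, 34083 and 20146 at 32 °C. The temperatures overlapped in both cultivars, and the log2 change was -0.12 ± 0.21 SE (limma adjusted p = 0.789).

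CSD2a had 22743, 18656 and 21362 in Sicala 45 at 42 °C, against 12643, 16875 and 15744 at 32 °C. In Sicot 53 it had 18847, 21374 and 22127 at 42 °C, against 20177, 20710 and 18425 at 32 °C. The temperatures lay apart in Sicala 45 and overlapped in Sicot 53. Averaged, the log2 change was +0.27 ± 0.14 SE (limma adjusted p = 0.233). In Sicala 45 alone it was +0.48 ± 0.19 SE (adjusted p = 0.258), and the difference between the cultivars in this change was -0.41 ± 0.27 SE (adjusted p = 1).

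Other antioxidant genes could be found by name at lower signal. Of 8 tested probe sets outside the members named for superoxide dismutase, ascorbate peroxidase or glutathione S-transferase, 0 passed upward (against 4.22% of all) and 1 downward (against 4.59% of all), with a median of -0.28. The 1 was the glutathione S-transferase GST (LOC107948407), which conjugates glutathione to reactive compounds, at -1.16 ± 0.27 SE (limma adjusted p = 0.02). The ascorbate peroxidases gAPX and sAPX, which use ascorbate to remove hydrogen peroxide, had -0.19 ± 0.19 SE and -0.04 ± 0.23 SE. The manganese and iron superoxide dismutases MnSOD, in its brighter probe set, and FeSOD had -0.51 ± 0.25 SE and -0.04 ± 0.18 SE.

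ACO3 came nearest to the threshold among the named members. It had 14315, 16310 and 20633 in Sicala 45 at 42 °C, against 7922, 12341 and 14419 at 32 °C. In Sicot 53 it had 13946, 23033 and 20017 at 42 °C, against 13580, 14167 and 9490 at 32 °C. The temperatures overlapped slightly in both cultivars, by 1 array each, and the log2 change was +0.60 ± 0.20 SE (1.51-fold, limma adjusted p = 0.0871). With array weights it passed (+0.57, adjusted p = 0.0442), but its change was +0.39 with a measure of RNA quality, the 3'/5' ratio of control genes, as a covariate (adjusted p = 0.265), +0.33 scaled to the hybridization controls (adjusted p = 0.67) and +0.071 scaled to the spikes (adjusted p = 0.756). Of 5 tested probe sets outside the members named for enzymes of ethylene synthesis, 1 passed upward (against 4.22% of all), ACO1 (LOC107905899) at +0.94 ± 0.23 SE (adjusted p = 0.0261), and 0 downward (against 4.59% of all), with a median of -0.37. Another probe set named ACO1 (LOC107954048) went the other way, at -0.93 ± 0.47 SE (limma adjusted p = 0.247). The ACC synthase ACS1, by its name an enzyme of the step before, had -0.40 ± 0.15 SE (adjusted p = 0.116).

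LTP3, of the family of small proteins that bind and carry lipids and are abundant in the leaf surface layer, had 19517, 16165 and 15333 in Sicala 45 at 42 °C, against 16474, 19874 and 14644 at 32 °C. In Sicot 53 it had 23004, 10169 and 13308 at 42 °C, against 21065, 19534 and 16628 at 32 °C. The temperatures overlapped in both cultivars, and the log2 change was -0.19 ± 0.20 SE (limma adjusted p = 0.61). A dimmer probe set of the same gene had -0.20 ± 0.15 SE. Among the other fibre markers, E6 had +0.21 ± 0.21 SE, Fb2 -0.69 ± 0.21 SE (adjusted p = 0.0607) and FLA7 -0.59 ± 0.33 SE. CAT2 and LTP3 passed downward with the arrays scaled to the spikes (-0.64 and -0.71).

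The other 15 members with exactly 1 gene have no gene name. Their changes lay between -0.49 and +0.45, with 8 above 0 and 7 below, and 0 passed in limma. The lowest was LOC107953769 (rank 105), with -0.49 ± 0.22 SE (adjusted p = 0.179). The highest was LOC107932091 (rank 77), with +0.45 ± 0.16 SE (adjusted p = 0.108). Both missed the threshold.

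Some of these genes had a dimmer probe set outside the members, and it did not always move alike. LOC107957019 had a member, of rank 166, with a change of +0.01 ± 0.18 SE. A dimmer probe set of that gene had 2239, 1312 and 2325 in Sicala 45 at 42 °C, against 4447, 3547 and 3428 at 32 °C. In Sicot 53 it had 2998, 1007 and 1721 at 42 °C, against 3325, 4186 and 4869 at 32 °C. The temperatures lay apart in both cultivars, and it fell with heat (log2 change -1.11 ± 0.25 SE, limma adjusted p = 0.0184). The remaining probe sets of the gene, with changes of -0.40 ± 0.15 SE and -0.46 ± 0.29 SE, did not pass. For the gene pair LOC107962050 and LOC107900447, the member, of rank 128, had -0.0027 ± 0.19 SE, and a dim probe set, at a mean of 151, fell by 0.61 (adjusted p = 0.0374). The difference between probe sets of 1 gene was not tested, and the pairing of probe sets with genes was not checked here.

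Within single cultivars, 2 members passed in each, and they were the same 2. In Sicala 45 this was 1%, against 1.81% of all probe sets tested, and in Sicot 53 1%, against 1.36%. Both were higher at 42 °C, as were 1.15% of all in Sicala 45 and 1.05% in Sicot 53. The member of rank 186 had a log2 change of +2.82 ± 0.55 SE in Sicala 45 (limma adjusted p = 0.0232) and +2.63 ± 0.55 SE in Sicot 53 (0.0395). Rank 125 had +1.25 ± 0.21 SE in Sicala 45 (limma adjusted p = 0.0113) and +0.95 ± 0.21 SE in Sicot 53 (0.0494). The 2 other members called for averaged heat had changes of the same sign in both cultivars and did not pass in either.

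These counts leaned on single arrays. In Sicala 45 the count was 0 without replicate 3 of its 32 °C group, and 1 without replicate 1 or 2 of that group or replicate 1 of its 42 °C group. In Sicot 53 it stayed at 2 only without replicate 2 of its own 32 °C group or without replicate 1 of Sicala 45 at 42 °C, and was 0 or 1 without any other single array. The 3 arrays at 42 °C lay above those at 32 °C for 10 members in Sicala 45 (5%, against 9.58% of all) and below them for 1 (0.5%, against 11% of all). In Sicot 53 they lay above for 6 (3%, against 9.16%) and below for 6 (3%, against 11.7%).

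The heat changes of the cultivars were then set against each other. The median change of the members was +0.16 in Sicala 45 and -0.06 in Sicot 53, and 158 members lay above 0 in Sicala 45 against 75 in Sicot 53. For the difference itself (Sicot 53 minus Sicala 45) the median was -0.21 over the members and -0.04 over all probe sets tested. In limma 0 of 200 members passed for this difference, against 0% of all 16820, and 0 members had an unadjusted p under 0.05, against 1.91% of all. The 95% interval reached a median of 0.83 log2 units to either side. The array's highest signal moved the same way (+0.31 in Sicala 45 and -0.06 in Sicot 53), as did the hybridization controls (+0.47 and +0.07). The part of this shared offset in the members' median was not tested.

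Sicot 53 was also compared with Sicala 45 at each temperature. At 42 °C 0 of 200 members passed in limma, against 0.107% of all, and 2 had an unadjusted p under 0.05, against 2.94% of all. The median difference was +0.05 over the members and -0.03 over all. At 32 °C 0 of 200 passed, against 0.107% of all, and 2 had an unadjusted p under 0.05, against 2.13% of all. The median difference was +0.28 over the members, of which 178 lay above 0, and 0.00 over all. The Sicala 45 group at 32 °C holds the array with the lowest highest signal (24448), on which the members' median was 15608, against 19476 to 26214 on the other 11 arrays. At 32 °C the arrays of Sicot 53 lay above those of Sicala 45 for 9 members (4.5%, against 3.15% of all) and below for 0 (against 4.02%). At 42 °C they lay above for 3 (1.5%, against 2.35%) and below for 1 (0.5%, against 3.83%).

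CSD2a was among the 9 at 32 °C, with a log2 difference of +0.40 ± 0.19 SE (limma adjusted p = 1). RCA1 overlapped between the cultivars at both temperatures, with differences of +0.02 ± 0.28 SE at 42 °C and +0.43 ± 0.28 SE at 32 °C (adjusted p = 1 for both). Its 95% interval at 32 °C ran from -0.18 to +1.04.

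Some members differed widely between arrays of 1 group. In 16 members the SD between replicate arrays, relative to the members' median, was 0.5 log2 units or more, whereas in 33 it was under 0.1. The 16 include the members of ranks 186 and 193, which passed for averaged heat, at 0.67 and 0.66. Both were highest on replicate 1 of Sicala 45 at 42 °C. The widest was that of rank 62, which had 46458, 13395 and 11852 in Sicala 45 at 42 °C, against 20085, 32518 and 10880 at 32 °C. In Sicot 53 it had 31883, 2306 and 33180 at 42 °C, against 35680, 38237 and 22643 at 32 °C. Replicate 2 of Sicot 53 at 42 °C stood far below all other arrays, and the highest value was 20.2 times the lowest. The member of rank 63 had the same lowest and highest array, with a 16.9-fold range, as did both members of LOC107887176, with an 8.48-fold range at rank 94 and a 5.83-fold range at rank 73. Another probe set of that gene, outside the members, was also lowest there, at 427.

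Another set of members ran low on other arrays. At rank 122 a member had 6580, 25346 and 23160 in Sicala 45 at 42 °C, against 15334, 19687 and 24515 at 32 °C. In Sicot 53 it had 20483, 27575 and 21285 at 42 °C, against 28675, 3404 and 23394 at 32 °C. It was low on replicate 1 of Sicala 45 at 42 °C and replicate 2 of Sicot 53 at 32 °C. The member of rank 196 and 3 members of 1 sequence cluster, of ranks 171, 172 and 174, were low on the same arrays, and were highest on replicate 2 of Sicot 53 at 42 °C. None of the members in this second set has a heat change that passed. They were picked after their values were seen.

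A measure of RNA quality is set beside these members. The array carries 3' and 5' probe sets for the cotton ubiquitin control ubq11, and their ratio is higher where the 5' part of RNA or cDNA is missing. This 3'/5' ratio was 6.39, 24.6 and 11.2 in Sicala 45 at 42 °C, against 6.14, 5.82 and 10.7 at 32 °C. In Sicot 53 it was 7.99, 41.5 and 13.4 at 42 °C, against 6.39, 5.16 and 4.73 at 32 °C. The highest ratio was on the array where the members of ranks 62, 63, 73 and 94 were lowest, and this rests on that 1 array. Of the 16 members with wide differences, 5 were lowest there, including that of rank 200. Another 5 were lowest on replicate 3 of Sicot 53 at 32 °C, where the ratio was 4.73, and 4 on replicate 2 of that group. Replicates 1 and 3 of Sicala 45 at 42 °C were lowest for 1 each. On the array with the next highest ratio, 24.6, the member of rank 62 had 13395, against 11852 on replicate 3 of the same group, where the ratio was 11.2. Averaged over cultivars, the ratio had a log2 change of +1.17 with heat (exact permutation p = 0.02), and that of actin +0.02 (p = 0.925). On single arrays the actin ratio was highest, at 18.6, where that of ubq11 was 41.5. It was next highest, at 14.7, where that of ubq11 was 24.6, and 6.02 to 13.5 on the other arrays. The part of RNA quality in the members' values was not tested. With the 2 arrays of ubq11 ratio over 20 left out, 4 members passed for averaged heat, or 2%, against 4.66% of all probe sets tested in that fit.

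**Figure D5:**
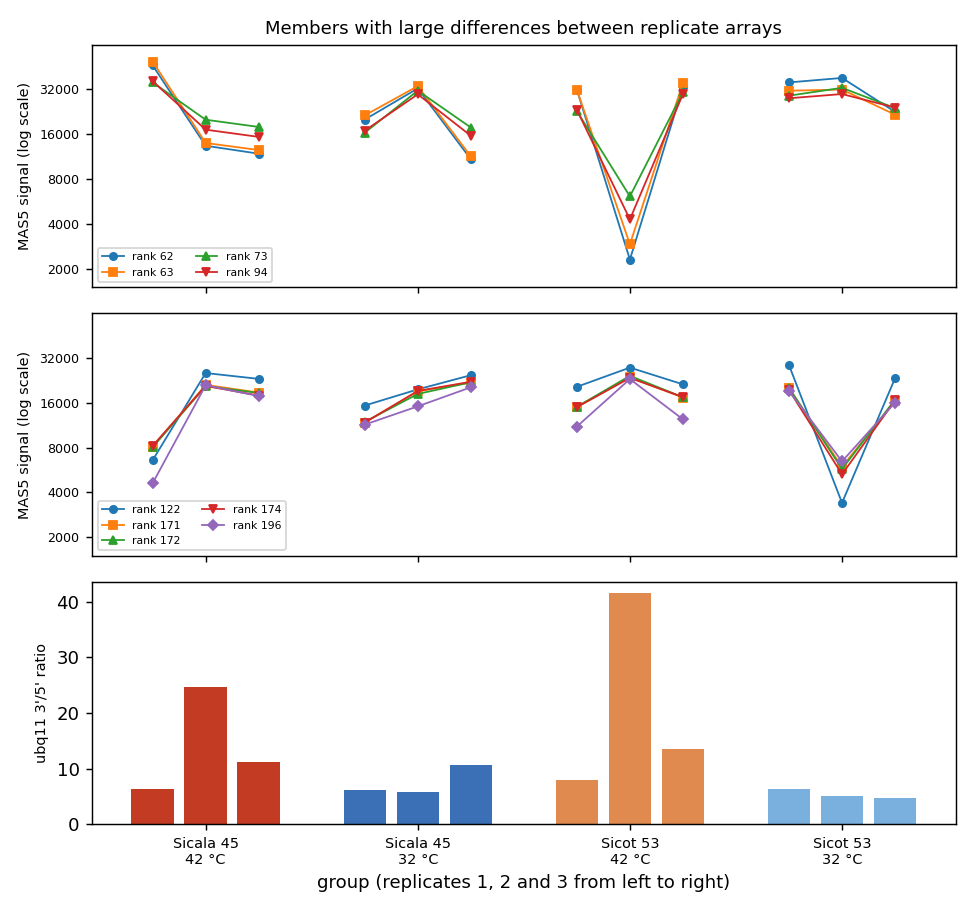
MAS5 signal (log axis) of 9 members with wide differences between replicate arrays (top and middle) and the ubq11 3'/5' ratio (bottom, bars from 0) on each of the 12 arrays, with lines joining the arrays of 1 group. The members on top fall to 2306 to 6122 on replicate 2 of Sicot 53 at 42 °C, where the ratio is 41.5, and those in the middle are low on replicate 1 of Sicala 45 at 42 °C and replicate 2 of Sicot 53 at 32 °C, where it is 6.39 and 5.16.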

How the data were processed

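Per the labels' protocols, leaf RNA extracted with hot borate went onto Affymetrix Cotton arrays. The authors deposited a linear intensity for every probe set, made with MAS5 (no version) per the submitters' processing notes. Each array's mean, trimmed from the 2nd to the 98th percentile, was 500. Columns were matched to samples by the table's own sample identifiers, and 0 columns were of other series. No detection calls or probe-level values were used.

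From these, log2(signal + 16) was computed, on which all log2 changes are given. The 103 AFFX controls and the dimmest 30% of the rest were left out. With limma 3.58.1 (R 4.3.3; lmFit, eBayes with trend, two-sided) 1 model of the 4 groups was fitted to all 12 arrays, after a check on simulated data. SE is the model's standard error, and ± SD is over 3 arrays. A change is 42 °C minus 32 °C, or Sicot 53 minus Sicala 45. Controls were compared by a two-sided exact permutation within cultivars. The members, gene lists and naming rules were chosen with earlier results of these data known. The rule names RCA1, members with 1 gene, the 10 brightest, members called with groups apart, and those next to the limit of the choice. Members without a gene are given by rank in place of their IDs. The lists were meant to be found by product words, but the annotation (assembly Gossypium_hirsutum_v2.1, all 22 single-gene members matched) gave only short gene names, so the photosynthesis, chaperone, translation and other lists could not be filled, and the antioxidant and ethylene lists were filled by gene names chosen afterwards. Same-numbered arrays of different groups correlated at -0.48 to 0.457 in their deviations from group means, and the main fit did not pair samples by replicate number. Deviations from means of 3 arrays cannot settle whether same-numbered arrays share a block. Alternatives changed the normalization, pseudocount, filter, variance model, RNA quality terms, samples and choice of members. Python 3.11.15 and matplotlib 3.10.9 made the figures.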

Additional observations from a re-analysis of the deposited data

How the results depend on the processing

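For averaged heat, the count of 4 members became 10 with quantile normalization (6 higher, 4 lower; 5%, against 8.83% of all probe sets tested), 77 with scaling to the spikes (38.5%, against 34.7% of all), 0 with 100 members, 25 with 400 members (6.25%, against 8.8% of all), 2 with members chosen by median and 0 by lowest group mean, a choice that by its construction leaves out probe sets low in any group, and was 3 to 6 under the other settings and 4 to 5 with 1 array left out. In Sicala 45 the count of 2 became 1 with scaling to the spikes, to the highest signal or to the hybridization controls, without the 2 arrays of high ubq11 ratio, in a fit of only the groups compared and with members by median, 0 with 100 members or by lowest group mean, 10 with 400, and 0 to 3 with 1 array left out. In Sicot 53 the count of 2 became 1 with median centring, no filter or members by median, 5 with array weights, 0 with the spikes, without the trend, with the 3'/5' ratio as a covariate, without the 2 arrays of high ubq11 ratio, in a fit of only the groups compared, with 100 members or by lowest group mean, 9 with 400, and 0 to 2 with 1 array left out. The counts of the cultivar comparisons and of the difference between heat changes stayed at 0 with 1 array left out. The labels do not say whether replicate numbers pair the samples. With the replicate block, averaged heat kept 4 calls, Sicala 45 kept its count within 1.5 times, and Sicot 53 had 0.

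Signs turned for RCA1 (-0.036 with quantile normalization, -0.41 with spikes, -0.0093 with the highest signal, -0.15 with hybridization controls), CBP3 (-0.025, -0.43, -0.025 and -0.17 in that order), CBP2 (-0.39 with spikes, -0.13 with hybridization controls), CSD2a (-0.25 with spikes), LTP3 (+0.038 with the covariate) and CAT2 (+0.0096 without the arrays of high ubq11 ratio). Of the called members, that of rank 125 (+0.83, adjusted p = 0.0864) lost its call with hybridization controls, and that of rank 167 with these (+0.59) and with spikes (+0.33). The highest signal fell by 0.40 relative to spikes (exact permutation p = 0.03) and by 0.15 relative to hybridization controls. With 1 array left out, RCA1 ran from -0.0049 to +0.24, CBP3 from -0.020 to +0.21, CAT2 from -0.23 to +0.011, the highest signal from -0.0016 to +0.24, the spikes from 0.47 to 0.60, the ubq11 ratio from 0.84 to 1.43 (exact permutation p of 0.01 to 0.065) and the actin ratio from -0.22 to +0.19. The cause of these shifts was not tested. Centring on the members, the hybridization controls and leaving out the reporter were chosen after the data were seen, and the first and the last left 5 and 4 calls for averaged heat. A fit of only the groups compared gives no averaged change or difference, which need all 4 groups.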
